A study of Mus musculus with 6 samples.

Results

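Solute carriers are membrane proteins that move small molecules and ions across cell and organelle membranes, and their genes carry the symbol Slc with a family number. The rows of the count table whose symbol has that form gave 221 genes of 13384, in 47 families. Of these symbols, 3 name no transporter (Slc7a6os, Slc4a1ap and the pseudogene Slc2a4rg-ps), and they were kept because the rule took them. Polyadenylated RNA came from the left ventricles of 3 mice with a global Cygb-/- deletion and 3 wild-type (Cygb+/+) littermates, one library per mouse. Cytoglobin is a globin made by fibroblasts among other cells. All 6 adult mice had carried a subcutaneous osmotic pump that delivered 1.5 mg/kg/day of angiotensin II, which raises blood pressure, over 2 weeks, so the effect of angiotensin II itself was not measured, and the deletion was not limited to heart cells. Neither ages nor sexes are stated in the labels. Cygb itself was not analysed here, so the genotype labels were not checked against the deleted gene.

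Heart muscle takes up glucose mainly through the insulin-regulated carrier GLUT4 and burns fatty acids and lactate that enter through other carriers. Most carriers of the Slc25 family lie in the inner mitochondrial membrane, where they exchange ADP for ATP and pass phosphate, carnitine esters and metabolic acids. Sodium-coupled exchangers of calcium, protons and bicarbonate keep the myocyte's ions and pH within bounds between beats.

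The libraries held 25002634, 23190864 and 23652385 counts in Cygb-/- ventricles and 24725110, 24791227 and 30354857 in wild-type ventricles, and no solute carrier gene had fewer than 12 counts in any library. No other gene of the table did either, with lowest counts of 12 to 16 by library, so this floor belongs to the table. Solute carrier genes absent from the table could not be assessed. Library 1 of the wild-type group had high atrial muscle transcripts. All 3 genes of that list were detected and none was at 0, and their summed level ran from 27.2 to 32.8 CPM per kb of exon in Cygb-/- libraries and from 42.4 to 593 in wild-type libraries. Library 2 of the wild-type group had high fibroblast transcripts, with the summed level of 7 genes between 197 and 236 in Cygb-/- libraries and between 202 and 404 in wild-type libraries. Of 5 listed red blood cell genes, 4 were in the table. Their summed level lay between 285 and 381 in Cygb-/- libraries and between 323 and 855 in wild-type libraries, highest in wild-type library 1. In bulk tissue, fewer cells of a type and less RNA per cell cannot be told apart.

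No solute carrier gene passed the test. The edgeR quasi-likelihood test, adjusted over all 13384 genes, called 0 of the 221 at an adjusted p under 0.05, where it called 0.112% of all genes, and the smallest adjusted p of a member was 0.0849 (Slc1a4). At an unadjusted p under 0.05, 19 members were higher and 16 lower in Cygb-/- ventricles, against 10.2% of all genes higher and 8.94% lower. Those 35 members are 15.8% of the list, against 19.2% of all genes. Groups did not overlap for 27 members that were higher and 24 that were lower, against 11.8% and 10.5% of all genes. Many of the genes named below were taken from these, so their lack of overlap was fixed by that choice. The median log2 fold change of the 221 members was -0.02. DESeq2 called 3 members, Slc10a6 higher and Slc17a7 and Slc1a4 lower, where it called 4.62% of all genes. It gave no adjusted p for 7 of the 221, which could not be called. Without wild-type library 2, edgeR called 7 members higher and 10 lower, where it called 7.25% of all genes higher and 6.39% lower.

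**Figure D1:**
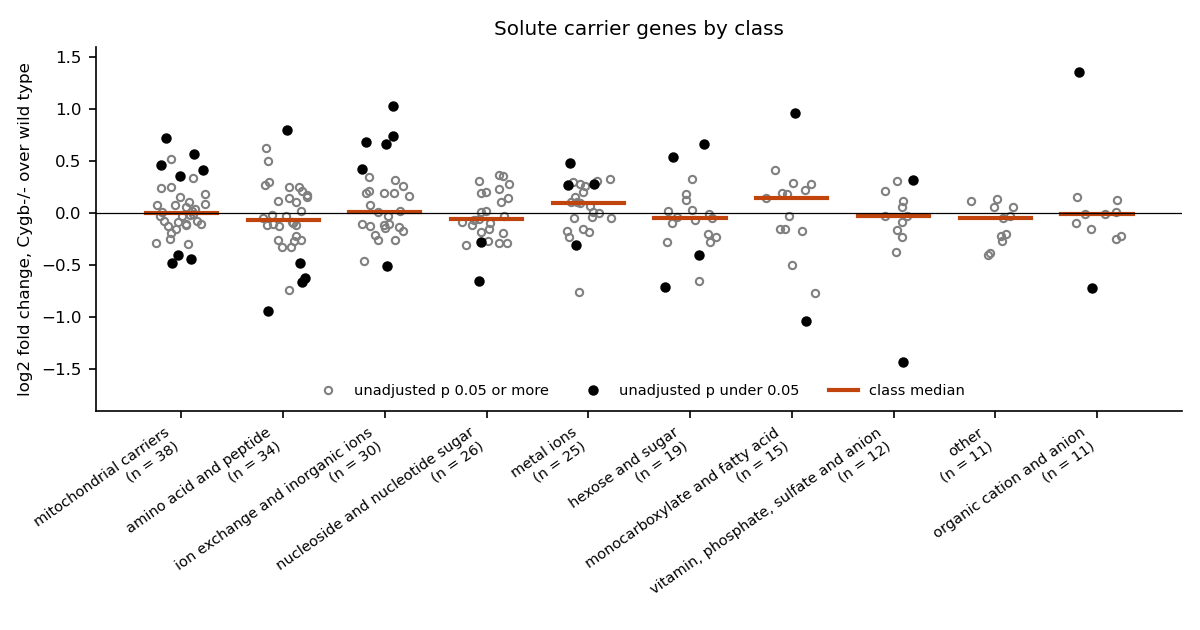
Log2 fold change of Cygb-/- over wild-type ventricles for each of the 221 solute carrier genes, by substrate class, with class medians as bars and filled points for an unadjusted p under 0.05. Points lie on both sides of 0 in every class, and the extremes are Slc10a6 at 1.36 and Slc17a7 at -1.43.

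Slc1a4 had the smallest p of the members, so the promoter sequences of the genes that share a motif with it are shown first. The letters TGATGCAA, an element of the kind bound by C/EBP and ATF factors when amino acids run short, were searched on both strands from 250 bases before to 50 after each RefSeq start (GRCm38.p6). They occurred in 279 of 27025 genes (1.03%), in 74 of the 10307 genes of the count table that had a promoter there (0.718%) and in 3 of the 170 solute carrier genes among these (1.76%). A second search, for TATAA on the forward strand from 45 to 10 bases before the start, found 4 of the 170 (2.35%). The share was 4.98% of the 27025 genes with a RefSeq promoter, and the genes of the count table were not set apart there. The 3 windows below hold the first motif in capitals, 5' to 3' on the gene's strand. Both motifs were chosen after the expression values had been seen.
Slc1a4, minus strand, chr11:20332692-20332797: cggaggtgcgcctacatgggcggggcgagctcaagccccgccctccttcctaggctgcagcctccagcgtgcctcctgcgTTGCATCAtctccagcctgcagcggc
Slc50a1, minus strand, chr3:89270734-89270820: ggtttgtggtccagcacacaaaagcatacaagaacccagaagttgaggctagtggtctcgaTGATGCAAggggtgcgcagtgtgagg
Slc7a7, minus strand, chr14:54417920-54418025: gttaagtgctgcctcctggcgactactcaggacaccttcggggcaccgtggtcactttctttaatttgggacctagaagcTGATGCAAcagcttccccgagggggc
In Slc1a4 the letters stand in reverse, as TTGCATCA, and begin 4 bases before the start, while in Slc50a1 they begin 189 bases before it. Slc7a7, a subunit of a cationic and neutral amino acid exchanger, has 5 RefSeq promoters. In the one printed the motif begins 1 base before the start and runs past it. From the start of another promoter the first base of these letters lies at -243. A match is a description of these letters and does not show binding. Of these 3 genes, Slc1a4 and Slc50a1 were lower in Cygb-/- ventricles with groups that did not overlap, as were 10.5% of all genes. Slc1a4 was picked for its p, so its difference was known beforehand. A link between motif and expression was not tested. Slc7a7 had 5.19, 4.87 and 4.67 CPM in Cygb-/- ventricles, against 5.27, 4.92 and 4.85 CPM in wild-type ventricles, with groups that overlapped. It shares 232 exonic bases with Oxa1l.

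Solute carrier transcript was dominated by the mitochondrial carriers. To compare genes, CPM scaled by TMM (trimmed mean of M-values) was divided by the kb of annotated exon. On that scale Slc25a4, the heart and muscle ADP/ATP carrier at chr8:46206797-46211284 (GRCm38), averaged 1853 over the 6 libraries, which was 47.6% of the summed level of the 221 genes, and the 10 highest members held 70.3%. Next came Slc25a11, which exchanges oxoglutarate for malate and shares 189 exonic bases with Rnf167, at 232, Slc25a3, the phosphate carrier, at 146, and Slc25a5, the ADP/ATP carrier of dividing tissues, at 138. Of the carriers outside mitochondria, Slc2a4 (GLUT4) was at 109, Slc16a1, a lactate and pyruvate carrier, at 61.1, and Slc6a8, the creatine carrier, at 52.2. The median member was at 2.73, against 4.03 for all genes, 45 members were at 10 or more, and the lowest was Slc2a13, a myo-inositol carrier, at 0.0845. The 38 genes of the Slc25 family, all classed here as mitochondrial carriers, made up 69.7% of the sum. Their summed level was 2678 ± 130 in Cygb-/- ventricles and 2745 ± 322 in wild-type ventricles (SD, n = 3 each), so the groups overlapped.

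**Figure D2:**
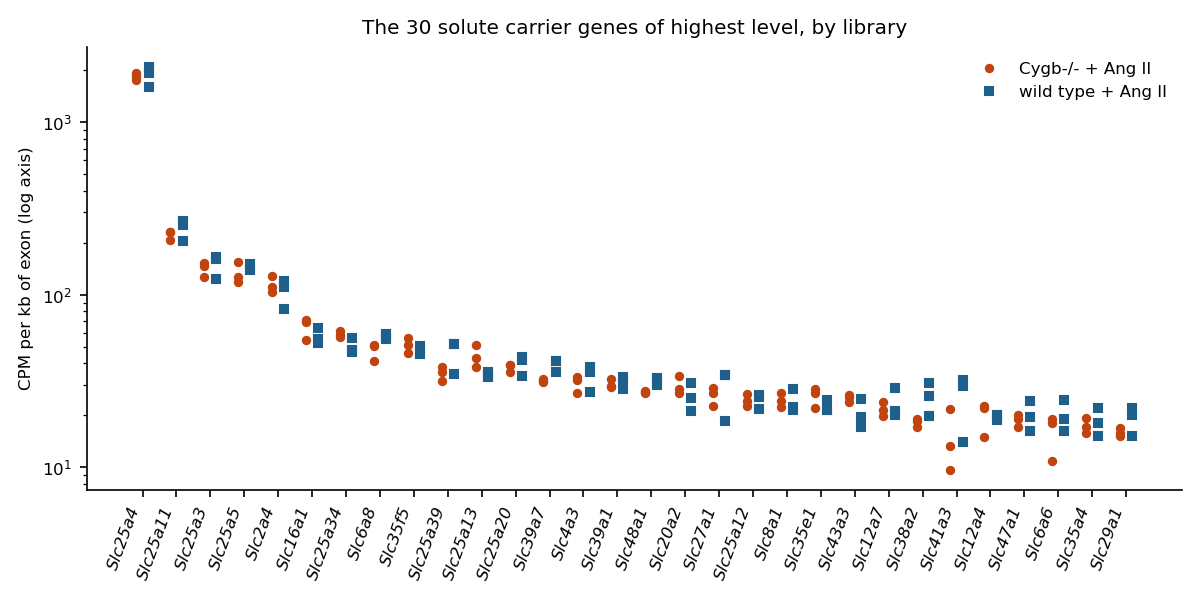
CPM per kb of exon (log axis) of the 30 solute carrier genes of highest mean level, with Cygb-/- libraries as circles and wild-type libraries as squares. Slc25a4 stands apart at 1853 on average, and Slc25a11 follows at 232.

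**Figure D3:**
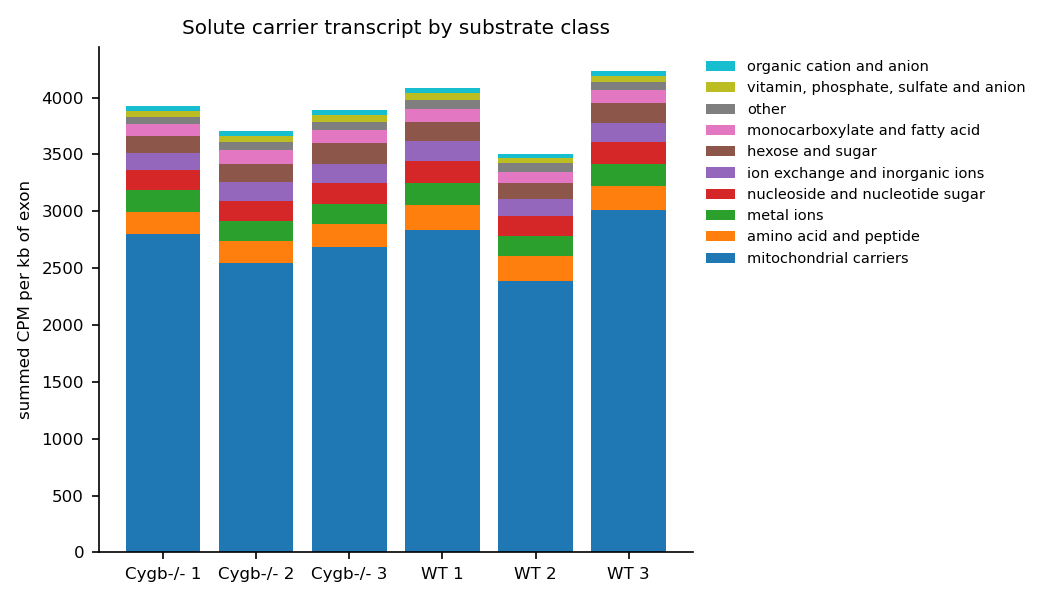
Summed CPM per kb of exon by substrate class in each library, Cygb-/- libraries at left and wild-type libraries at right. Mitochondrial carriers form the largest block in all 6, and wild-type library 2 has the lowest total, 3506, against 4234 in wild-type library 3.

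Among the mitochondrial carriers, Slc25a4 had 4514, 4138 and 4306 CPM in Cygb-/- ventricles, against 4536, 3762 and 4900.2 CPM in wild-type ventricles. These ranges overlapped, and the adjusted p of edgeR was 0.933. The 4 paralog ratios below were picked after the values had been seen, and with 3 against 3 libraries a two-sided exact permutation test cannot give a p below 0.1. The level of Slc25a4 over Slc25a5 per kb of exon was 13.9 ± 1.26 in Cygb-/- ventricles and 13.1 ± 2.23 in wild-type ventricles (SD, n = 3 each, exact permutation p = 0.7). Slc25a13, one of the aspartate and glutamate carriers of the malate shuttle, was higher, with 163, 145 and 193 CPM in Cygb-/- ventricles, against 128, 135 and 127 CPM in wild-type ventricles. Every Cygb-/- value lay above the wild-type values (edgeR log2 fold change 0.36 with an SE of 0.13 and an adjusted p of 0.171). Its partner Slc25a12, the form typical of heart and brain, had 178, 166 and 194 CPM in Cygb-/- ventricles, against 193, 160.3 and 188 CPM in wild-type ventricles, with overlapping groups. Per kb of exon, the ratio of Slc25a13 to Slc25a12 was 1.79 ± 0.127 in Cygb-/- ventricles and 1.41 ± 0.193 in wild-type ventricles (SD, n = 3 each, exact permutation p = 0.1, adjusted over the 4 ratios 0.4). In CPM, without division by exon length, Slc25a13 lay below Slc25a12 in every library. Slc25a1, the citrate carrier, was lower, with 7.96, 7.66 and 8.07 CPM in Cygb-/- ventricles, against 10.5, 10.8 and 11.7 CPM in wild-type ventricles. The groups did not overlap (edgeR log2 fold change -0.48 with an SE of 0.16 and an adjusted p of 0.151), and with offsets for GC content and length the log2 fold change was -0.18. Slc25a39, which imports glutathione, had 97.5, 104 and 86.5 CPM in Cygb-/- ventricles, against 143, 95.1 and 143 CPM in wild-type ventricles. Here the groups overlapped (edgeR log2 fold change -0.40 with an SE of 0.16 and an adjusted p of 0.204), and the same offsets gave -0.07. Slc25a40, its close relative, was higher, with 13.8, 13.6 and 11.9 CPM in Cygb-/- ventricles, against 8.07, 10.9 and 10.3 CPM in wild-type ventricles. Its groups did not overlap (edgeR log2 fold change 0.42 with an SE of 0.17 and an adjusted p of 0.209), and the offsets gave 0.17. Slc25a30, an uncoupling-protein-like carrier, had 5.59, 6.24 and 5.56 CPM in Cygb-/- ventricles, against 3.25, 4.26 and 4.19 CPM in wild-type ventricles, also without overlap (edgeR log2 fold change 0.57 with an SE of 0.21 and an adjusted p of 0.178). Slc25a34, a carrier of unknown substrate and seventh in level, had 164, 155 and 152 CPM in Cygb-/- ventricles, against 123, 127 and 149 CPM in wild-type ventricles (edgeR log2 fold change 0.24 with an SE of 0.12 and an adjusted p of 0.3; with the offsets 0.49). In this class 5 members were higher and 3 lower at an unadjusted p under 0.05, of 38 (21.1%), which is close to the 19.2% of all genes. Of 19 other mitochondrial transport genes, edgeR and DESeq2 each called 0, where edgeR called 0.112% and DESeq2 4.62% of all genes. Of the 19, 1 was lower at an unadjusted p under 0.05 (5.26%), against 8.94% of all genes lower and 19.2% in either direction.

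Among the carriers of glucose and other sugars, Slc2a4, the insulin-responsive carrier, had 362, 383 and 447 CPM in Cygb-/- ventricles, against 384, 287 and 417 CPM in wild-type ventricles. The libraries overlapped and the edgeR adjusted p was 0.662. Slc2a1, the basal carrier, had 15.9, 20.02 and 19.98 CPM in Cygb-/- ventricles, against 15.8, 23.2 and 20.4 CPM in wild-type ventricles, and Slc2a4 stood over it per kb of exon by 21.6 ± 2.03 in Cygb-/- ventricles and 19.2 ± 6.13 in wild-type ventricles (SD, n = 3 each; exact permutation p = 0.7). Slc2a12, a second insulin-responsive carrier of heart, had 7.68, 7.28 and 8.20 CPM in Cygb-/- ventricles, against 6.01, 4.07 and 4.55 CPM in wild-type ventricles. It was higher without overlap (edgeR log2 fold change 0.66 with an SE of 0.21 and an adjusted p of 0.127), and it shares 407 exonic bases with Tbpl1, so its counts are uncertain. Slc2a10, whose human gene is mutated in arterial tortuosity, was lower, at 2.12, 2.37 and 1.63 CPM in Cygb-/- ventricles, against 3.62, 3.68 and 2.75 CPM in wild-type ventricles (edgeR log2 fold change -0.71 with an SE of 0.27 and an adjusted p of 0.185). Slc50a1, a sugar efflux carrier, had 19.2, 20.6 and 22.8 CPM in Cygb-/- ventricles, against 25.6, 25.8 and 31.1 CPM in wild-type ventricles. No library of one group reached the other (edgeR log2 fold change -0.40 with an SE of 0.14 and an adjusted p of 0.166), and the GC and length offsets gave -0.25. The 15 genes of GLUT4 vesicle traffic were listed with earlier results of these data known. Of them edgeR called 1, Lnpep, where it called 0.112% of all genes, so this share is no test of the list. At an unadjusted p under 0.05, 3 of the 15 were higher and 1 was lower (26.7%), against 19.2% of all genes. Lnpep, the insulin-regulated aminopeptidase that travels with GLUT4, rose to 70.6, 44.2 and 66.4 CPM in Cygb-/- ventricles, against 24.9, 32.6 and 23.003 CPM in wild-type ventricles (edgeR log2 fold change 1.17 with an SE of 0.19 and an adjusted p of 0.0378), and the GC and length offsets gave 0.75. It stayed higher in every setting tried, but the call was lost with some of them: the adjusted p was 0.142 without Cygb-/- library 1, 0.202 without Cygb-/- library 3, 0.09 without wild-type library 1 and 0.116 without wild-type library 3 (edgeR), 0.0577 with genes of at least 5 CPM, 0.0545 without robust estimation and 0.062 with limma-voom.

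Among the amino acid carriers, Slc1a4, a neutral amino acid exchanger, had 2.12, 2.83 and 2.65 CPM in Cygb-/- ventricles, against 5.10, 5.001 and 4.46 CPM in wild-type ventricles. All 3 Cygb-/- values lay below all 3 wild-type values (edgeR log2 fold change -0.94 with an SE of 0.23 and an adjusted p of 0.0849), and DESeq2 gave an adjusted p of 0.0176. Slc38a2, a sodium-coupled neutral amino acid carrier known for its induction when amino acids run short, had 168, 164 and 152 CPM in Cygb-/- ventricles, against 273, 228 and 176 CPM in wild-type ventricles. It too was lower without overlap (edgeR log2 fold change -0.48 with an SE of 0.15 and an adjusted p of 0.132), and -0.32 without wild-type library 1. Slc38a4, of the same family, had 10.05, 6.58 and 6.92 CPM in Cygb-/- ventricles, against 13.8, 10.3 and 13.3 CPM in wild-type ventricles (edgeR log2 fold change -0.67 with an SE of 0.20 and an adjusted p of 0.126). Slc36a4, of the proton-coupled amino acid carrier family, was higher, at 5.55, 4.08 and 4.59 CPM in Cygb-/- ventricles, against 2.43, 3.64 and 2.10 CPM in wild-type ventricles (edgeR log2 fold change 0.80 with an SE of 0.27 and an adjusted p of 0.145). The exchanger pair Slc7a5 and Slc3a2, the glutamine exchanger Slc1a5 and the cationic carrier Slc7a1 overlapped between groups, with edgeR adjusted p of 0.776, 0.608, 0.781 and 0.951. Slc6a8, which supplies the creatine that buffers ATP, had 265, 215 and 262 CPM in Cygb-/- ventricles, against 294, 287 and 309 CPM in wild-type ventricles. Its groups did not overlap (edgeR log2 fold change -0.26 with an SE of 0.12 and an adjusted p of 0.268), and the GC and length offsets gave -0.10. Slc6a6, the taurine carrier, had 91.9, 151 and 161 CPM in Cygb-/- ventricles, against 207, 161 and 138 CPM in wild-type ventricles, with overlap. Slc1a3, a glutamate carrier, had 1.88, 2.58 and 2.12 CPM in Cygb-/- ventricles, against 1.69, 6.90 and 2.39 CPM in wild-type ventricles (edgeR log2 fold change -0.74 with an SE of 0.46 and an adjusted p of 0.407). The highest value is that of wild-type library 2, the library with high fibroblast genes, and without it the log2 fold change was 0.10; the part of those genes in it was not tested.

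**Figure D4:**
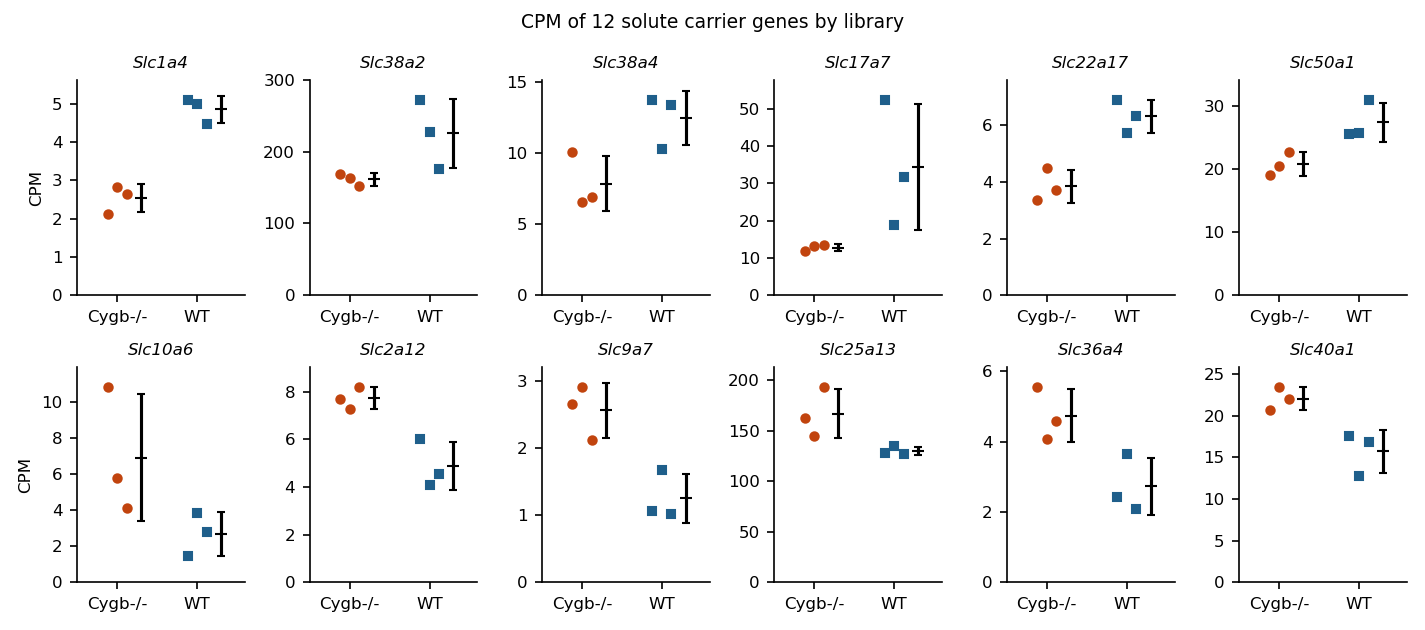
CPM by library of 12 solute carrier genes, Cygb-/- at left and wild type at right in each panel, with the mean and SD beside the points (n = 3 each). The 12 were taken from members named because their groups did not overlap, so the lack of overlap was fixed by that choice. Of all genes, 22.3% do not overlap. Slc1a4 lies at 2.12, 2.83 and 2.65 in Cygb-/- libraries and at 5.10, 5.001 and 4.46 in wild-type libraries.

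Among the ion exchangers, Slc8a1, the sodium and calcium exchanger, had 507, 420.1 and 454 CPM in Cygb-/- ventricles, against 403, 537 and 422 CPM in wild-type ventricles with overlapping groups (edgeR adjusted p = 0.953). Slc4a3, a chloride and bicarbonate exchanger, had 232, 287 and 274 CPM in Cygb-/- ventricles, against 328, 236 and 306 CPM in wild-type ventricles, also overlapping. Slc9a7, a sodium and proton exchanger of the Golgi, was higher at 2.65, 2.91 and 2.12 CPM in Cygb-/- ventricles, against 1.07, 1.67 and 1.02 CPM in wild-type ventricles. The groups were apart (edgeR log2 fold change 1.04 with an SE of 0.30 and an adjusted p of 0.113) at a low level. Slc9a2, a plasma-membrane relative, had 6.82, 5.04 and 6.61 CPM in Cygb-/- ventricles, against 4.94, 2.67 and 3.44 CPM in wild-type ventricles (edgeR log2 fold change 0.74 with an SE of 0.25 and an adjusted p of 0.156). Slc4a7, a sodium bicarbonate carrier, had 23.5, 18.4 and 20.6 CPM in Cygb-/- ventricles, against 14.7, 16.98 and 14.8 CPM in wild-type ventricles. Here no values overlapped (edgeR log2 fold change 0.43 with an SE of 0.15 and an adjusted p of 0.158), and the GC and length offsets gave 0.08. Slc4a8, another sodium bicarbonate carrier, had 7.39, 7.74 and 6.83 CPM in Cygb-/- ventricles, against 2.68, 5.47 and 5.67 CPM in wild-type ventricles (edgeR log2 fold change 0.66 with an SE of 0.26 and an adjusted p of 0.198), and 0.39 without wild-type library 1. Slc12a9, of the cation and chloride cotransporter family, was lower, at 5.96, 8.28 and 6.53 CPM in Cygb-/- ventricles, against 9.88, 8.61 and 10.98 CPM in wild-type ventricles (edgeR log2 fold change -0.51 with an SE of 0.19 and an adjusted p of 0.187; with the offsets -0.21). The ratio per kb of exon of the potassium and chloride cotransporters Slc12a7 and Slc12a4 was 1.12 ± 0.195 in Cygb-/- ventricles and 1.18 ± 0.206 in wild-type ventricles (SD, n = 3 each, exact permutation p = 0.7). A list of 11 other genes of calcium and sodium transport was chosen with earlier results of these data known. It includes Ryr2 and Pln, which are also among the cardiomyocyte markers, so their shared direction is a description only. All 11 had a log2 fold change above 0 in edgeR, with a median of 0.27, where 6618 of the 13384 genes were above 0. With the GC content and length offsets the median was 0.12, and Atp2b4, a plasma-membrane calcium pump, was at -0.0027. Of these 11, edgeR called 0 and DESeq2 1, against 0.112% and 4.62% of all genes, and 4 had an unadjusted p under 0.05 (36.4%), against 19.2% of all genes.

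Among the carriers of metals and organic ions, Slc40a1, the iron exporter ferroportin, had 20.7, 23.5 and 21.96 CPM in Cygb-/- ventricles, against 17.6, 12.8 and 16.8 CPM in wild-type ventricles. It was higher without overlap (edgeR log2 fold change 0.49 with an SE of 0.16 and an adjusted p of 0.136), and the GC and length offsets gave 0.28. Slc39a7, which releases zinc from the endoplasmic reticulum, was lower at 81.3, 80.5 and 84.1 CPM in Cygb-/- ventricles, against 106, 91.9 and 107 CPM in wild-type ventricles (edgeR log2 fold change -0.31 with an SE of 0.12 and an adjusted p of 0.19; with the offsets -0.06). Slc10a6, a carrier of sulfated steroids at chr5:103605711-103629403, had 10.8, 5.78 and 4.10 CPM in Cygb-/- ventricles, against 1.44, 3.84 and 2.79 CPM in wild-type ventricles. The lowest Cygb-/- library was close to the highest wild-type library (edgeR log2 fold change 1.36 with an SE of 0.41 and an adjusted p of 0.13), and DESeq2 gave 0.0137 as adjusted p. Slc22a17, known as a lipocalin-2 receptor, was lower at 3.35, 4.49 and 3.70 CPM in Cygb-/- ventricles, against 6.92, 5.74 and 6.32 CPM in wild-type ventricles (edgeR log2 fold change -0.72 with an SE of 0.21 and an adjusted p of 0.117). Slc17a7, the vesicular glutamate carrier of neurons at chr7:45163949-45176142, had 11.8, 13.2 and 13.4 CPM in Cygb-/- ventricles, against 52.5, 18.96 and 31.7 CPM in wild-type ventricles. Every wild-type value lay above the Cygb-/- values but they spread widely (edgeR log2 fold change -1.43 with an SE of 0.33 and an adjusted p of 0.101), and DESeq2 gave an adjusted p of 5.16e-05. Its highest value was in wild-type library 1, the library with high atrial transcripts, whose part in it was not tested, and without that library its log2 fold change was -0.99.

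Among the carriers of monocarboxylates, fatty acids and nucleosides, Slc16a1 had 242, 315 and 305 CPM in Cygb-/- ventricles, against 246, 283 and 232 CPM in wild-type ventricles (edgeR adjusted p = 0.488), with overlap. Slc16a4, a monocarboxylate family member, was higher at 1.76, 1.46 and 2.29 CPM in Cygb-/- ventricles, against 0.618, 1.16 and 1.02 CPM in wild-type ventricles (edgeR log2 fold change 0.96 with an SE of 0.33 and an adjusted p of 0.157). Slc27a1, a fatty acid transport protein, had 132, 169 and 156 CPM in Cygb-/- ventricles, against 199.7, 109 and 199.9 CPM in wild-type ventricles, with overlap, and Slc27a3, a relative, was lower at 1.67, 2.62 and 1.46 CPM in Cygb-/- ventricles, against 5.56, 2.83 and 3.47 CPM in wild-type ventricles (edgeR log2 fold change -1.04 with an SE of 0.33 and an adjusted p of 0.13). Slc29a2, a nucleoside carrier, had 6.53, 7.78 and 7.01 CPM in Cygb-/- ventricles, against 14.2, 8.14 and 11.04 CPM in wild-type ventricles (edgeR log2 fold change -0.65 with an SE of 0.21 and an adjusted p of 0.141; with the offsets -0.38). For Slc27a3 and Slc29a2, too, wild-type library 1 was the highest, and without it their log2 fold changes were -0.72 and -0.43. Other named members were also highest in that library, Slc1a4, Slc38a4 and Slc22a17 among them. Some were lowest there, among them Slc10a6, Slc16a4 and Slc25a40. The log2 fold changes of these genes without it are not given here, and its part in them was not tested. Of 8 genes of fatty acid entry, edgeR and DESeq2 each called 0, against 0.112% and 4.62% of all genes, and 1 was higher at an unadjusted p under 0.05 (12.5%), against 10.2% of all genes higher. Of 10 chaperones or regulators of carriers, both tools again called 0, with 1 higher and 2 lower at that unadjusted p, against 10.2% of all genes higher and 8.94% lower.

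The members with the smallest p split by base composition. The 19 higher members had a median GC content of 46.7% and the 16 lower members 56.8%, and the same held over all genes at that threshold, with 44.4% and 56.1%. With offsets for GC content and length, 33 members had an unadjusted p under 0.05, of which 20 were among the 35. The share of all genes at that p with the offsets is not given here. The median log2 fold change of the 19 was 0.57, and 0.43 with the offsets, and that of the 16 was -0.57, and -0.41 with the offsets. Both sets were picked by p and sign in these data, which fixed their direction. For all genes picked likewise, the medians were 0.52 and 0.32 with the offsets for the higher genes. For the lower genes they were -0.50 and -0.34.

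**Figure D5:**
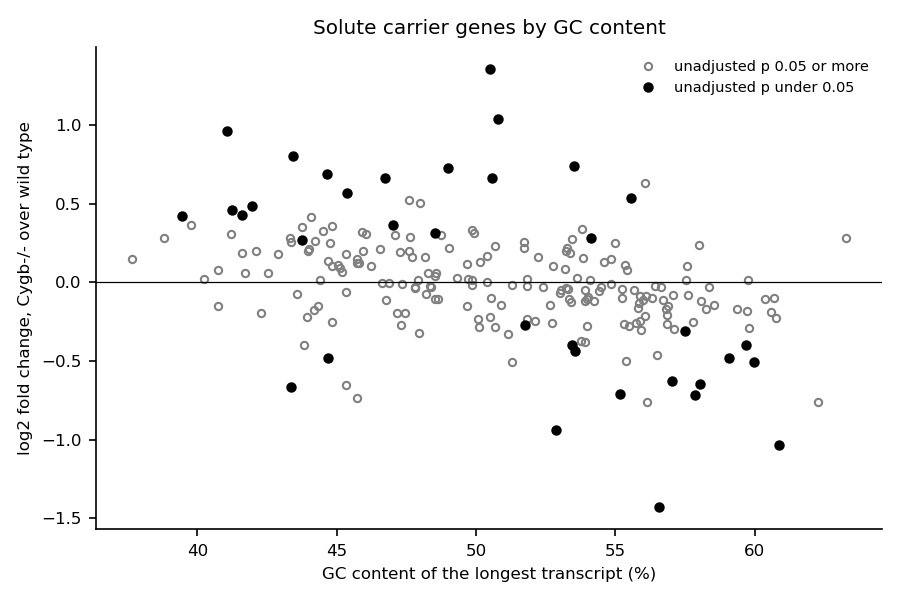
Log2 fold change of Cygb-/- over wild-type ventricles against GC content of the longest transcript, 1 point per solute carrier gene. Filled points (unadjusted p under 0.05) above 0 lie at a median of 46.7% GC and those below 0 at 56.8%.

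Variation between mice was like that of other genes in size. The highest library exceeded the lowest by a median of 1.52-fold, against 1.54-fold over all genes, and 43 members (19.5%) exceeded 2-fold, against 20.6% of all genes. Slc25a23, a calcium-regulated carrier of ATP-magnesium, had 59.5, 60.1 and 61.3 CPM in Cygb-/- ventricles, against 61.1, 64.4 and 58.4 CPM in wild-type ventricles, the lowest coefficient of variation of the members. Slc41a3, a magnesium carrier relative, had 63.1, 38.7 and 28.2 CPM in Cygb-/- ventricles, against 93.4, 40.6 and 86.01 CPM in wild-type ventricles, with overlapping groups.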

How the data were processed

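The authors deposited 1 table of whole-number counts per gene for 6 libraries, with Entrez identifiers. Per the submitters' processing notes, the build was mm10 and DESeq2 was used, with no versions; aligner, counter and strand setting: not given in the sources used here. Members were all rows whose symbol is Slc, a number, letters and a number; classes follow the family number. The members, gene lists and tests were chosen with earlier results of these data known. The main test was the robust quasi-likelihood test of edgeR 4.0.16, run in R 4.3.3 with TMM size factors; the filter on low counts removed 0 genes. Adjusted p-values are Benjamini-Hochberg over 13384 genes with a threshold of 0.05, Cygb-/- minus wild type, 3 libraries per group. DESeq2 1.42.0, limma 3.58.1, other size factors, a filter of 5 CPM, GC content and length offsets (splines with 4 degrees of freedom), a block by replicate number and leaving out each library were alternatives. Levels between genes are TMM-scaled CPM per kb of GENCODE exon; 97.9% of genes matched. Among the members, 22 share over 100 exonic bases with another gene of the table, and without a stated strand setting their counts are uncertain. Named genes were the 10 of highest level, the 12 higher and 12 lower of smallest p among members whose groups did not overlap, and a list of heart carriers; Slc2a13, Slc7a7, Slc12a4, Slc25a12, Slc25a23, Slc41a3 and Lnpep were named after their values were seen. Both edgeR and DESeq2 were tested on simulated data, where their share of false calls ran above the threshold in most draws and was higher for DESeq2. Library totals came from this table, and their number limits precision: the common biological coefficient of variation was 0.166.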

Additional observations from a re-analysis of the deposited data

How the results depend on the processing

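Counts of solute carrier genes called by edgeR were 0 under the other size factors, at a mean of 5 CPM and without robust estimation. They were also 0 with the GC content and length offsets, with and without the block. The fit without a filter could not differ from the main fit, because the filter had removed 0 genes. As separate tests, limma-voom called 0, with 37 at an unadjusted p under 0.05, and DESeq2 called 3. Leaving out each library gave 0 to 17 called, and the 17 came without wild-type library 2, where 1826 of all genes were called. Members at an unadjusted p under 0.05 numbered 20 to 61 over the left-out libraries, 20 without Cygb-/- library 1, 21 without Cygb-/- library 3 and 61 without wild-type library 2, against 35. Shares of all genes at that p are not given here for limma-voom or the left-out libraries. These counts therefore cannot be read as particular to the members. The median log2 fold change of -0.02 was 0.0174 with the GC content and length offsets and 0.0235 with the replicate block and those offsets. It lay between -0.0233 and -0.00217 over the left-out libraries. Over the left-out libraries the log2 fold change of Slc1a3 lay between -1.07 and 0.10, the positive value without wild-type library 2, and the cause was not tested. Lnpep lay between 1.04 and 1.35 over the left-out libraries, and with the replicate block and the GC content and length offsets its edgeR adjusted p was 0.0634. The replicate block called 1 member, Slc17a7 (edgeR adjusted p = 0.0401), and 218 of all genes. Replicate numbers did not pair the samples: same-numbered libraries had deviations correlated at -0.121, -0.0759 and -0.149, and 0 of 6 libraries correlated best with their own number. Members at the lowest levels rest on few counts, down to 12 in a library.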
